A study of Rattus norvegicus with 8 samples.

Results

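Of 36741 nuclei from rat nodose ganglia, 3493 (9.51%) carried at least 2 of 6 transcripts of fibroblast genes (Dcn, Col1a1, Col1a2, Col3a1, Lum and Pdgfra, 1 or more UMIs each), no UMI of the endothelial gene Pecam1 or the mural gene Notch3, and at most 2 UMIs in all of the neuronal genes Scn10a and Slc17a6. A UMI (unique molecular identifier) marks 1 captured RNA molecule. The selection is called fibroblast-type by its gene names, but the data went against that name. Most of the selected nuclei fell into glial clusters, and genes of myelin were among those that led them. Only 28 of the 3493 (0.802%) lay in a cluster that other fibroblast markers defined, a count that depends on the clustering. The text therefore calls the 3493 the selected nuclei, and keeps "fibroblast-like" for that cluster. The cluster also carried markers of perineurial cells, which wrap nerve bundles.

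The nodose ganglion holds the cell bodies of vagal sensory neurons, which carry signals from the gut, heart and airways to the brainstem. Ganglia came from untreated Long Evans rats, 8 weeks old, 18 labelled male and 18 labelled female, and each pool combined the ganglia of 1 side from 6 rats. There were 12 pools, 3 each of male left (ML), male right (MR), female left (FL) and female right (FR), and the pool was the unit of replication. The labels name no transgene, drug or injury in any group. Both ganglia of each rat were taken, so left and right pools of a labelled sex share rats, and which rats share a pool number is not given in the labels. Fixed nuclei were barcoded and split into 8 sublibraries, each holding all pools.

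Fibroblasts of a peripheral ganglion lie in the capsule, around vessels and between nerve fibres, and they build the collagen-rich matrix. Fibrillar collagen I is assembled from the chains encoded by Col1a1 and Col1a2, and collagen III from the chain of Col3a1. Decorin (Dcn) and lumican (Lum) are small proteoglycans that bind collagen fibrils, and Pdgfra is a receptor for platelet-derived growth factors that is widely used to mark fibroblasts. Schwann cells, the glia that wrap axons, also make matrix, since they lay down the basal lamina around each fibre.

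The pools held 1738 to 4849 nuclei and 7140286 to 19456287 UMIs. By their Y-linked transcripts, 2 pools went against their labels: the library labelled ML1 had 2.88 CPM of these genes (CPM, the UMIs of a gene scaled to a fixed library total) against 84.4 to 91.3 in the other male-labelled pools, and the library labelled FL1 had 88.6 against 2.73 to 3.95 in the other female-labelled pools. Results by sex are given by label, with and without those pools. Of 34798 distinct well barcodes, 1865 occurred in more than 1 sublibrary (3808 nuclei), and nuclei were told apart by sublibrary. The selected nuclei made up 8.43% to 10.3% of each sublibrary.

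The collagens did most of the selecting. At least 2 of Col1a1, Col1a2 and Col3a1 were detected in 3148 selected nuclei (90.1%), and 2472 (70.8%) had no UMI of Dcn, Lum or Pdgfra. The commonest combination was all 3 collagens and nothing else (876 nuclei), followed by Col1a2 with Col3a1 (663), Col1a1 with Col1a2 (552) and Col1a1 with Col3a1 (381). At least 2 of Dcn, Lum and Pdgfra were present in 125 nuclei (3.58%), and all 6 genes in 8 nuclei. Exactly 2 rule genes were detected in 1920 nuclei (55.0%), 3 in 1186, 4 in 331 and 5 in 48. Of 6439 nuclei with at least 2 rule genes, 845 were left out for Pecam1 or Notch3 and a further 2101 for more than 2 neuronal UMIs, of which 377 had exactly 3.

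The selected nuclei were shallower than the rest. Their median was 2091 UMIs and 1411 genes, against 2762 UMIs and 1613 genes in the other nuclei. Only 56 of them (1.60%) lay above the 95th percentile of UMIs of all nuclei. Doublets were not called, and whether nuclei that hold 2 cells added to the selection was not tested. After every nucleus was thinned at random to 1000 UMIs, which left out 260 selected and 1727 other nuclei, the rule took 2029 of 34754 nuclei (5.84%), of which 1685 had been selected before.

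All nuclei were clustered without the 10 genes of the rule, and clusters were named from lists of markers that the rule does not use. The cluster scheme was settled after the data had been seen. Myelinating Schwann-like nuclei supplied 1462 of the selected nuclei (41.9%), satellite glia-like nuclei 703 (20.1%), neuron-like clusters 578 (16.5%) and 2 unnamed clusters 614 (17.6%). Endothelial and mural-like nuclei added 72, skeletal muscle-like nuclei 36 and the fibroblast-like cluster 28. Satellite glia are the flat cells that enclose each sensory cell body. One of the unnamed clusters held 583 of the 614, and its leading genes (Kctd12, Niban1, Col28a1 and Acsbg1) did not meet the naming rule for any list, though 5 of 8 satellite glia markers were raised in it. The split depended on the clustering resolution. At 0.5 a single satellite glia-like cluster held 1433 of the selected nuclei (41.0%), neuron-like clusters held 339 and no fibroblast-like cluster was named, while at 2 neuron-like clusters held 1031 (29.5%). The myelinating Schwann-like share was 41.9% at 0.5 and 40.9% at 2.

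Taken the other way, 63.9% of the 2288 myelinating Schwann-like nuclei met the rule (95% exact binomial interval 61.9% to 65.9%, counting error only), with pools between 56.5% and 72.3%. The share was 28.7% of 2446 satellite glia-like nuclei (pools 20.3% to 36.7%), 18.8% of 3260 unnamed nuclei and 2.12% of 27286 neuron-like nuclei (1.95% to 2.30%). At an equal depth of 1000 UMIs these shares were 48.7%, 13.5%, 12.2% and 1.06%. The order of these 4 classes was the same at matched depth. Endothelial and mural-like nuclei (7.44%, thinned 7.83%) and skeletal muscle-like nuclei (7.83%, thinned 4.38%) changed places. The rule itself leaves out nuclei with Pecam1, Notch3 or more than 2 neuronal UMIs. The low shares of neuron-like and of endothelial and mural-like nuclei are thus partly set by the rule, and do not rank collagen detection alone. Within the neurons, the rule took most often from 2 deep clusters: 39 of 172 nuclei (22.7%) in one led by Lypd1, Trhr and Pappa2, with a median of 7994 UMIs, and 73 of 436 (16.7%) in one led by Th and Nxph1, with a median of 6864.5.

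**Figure D1:**
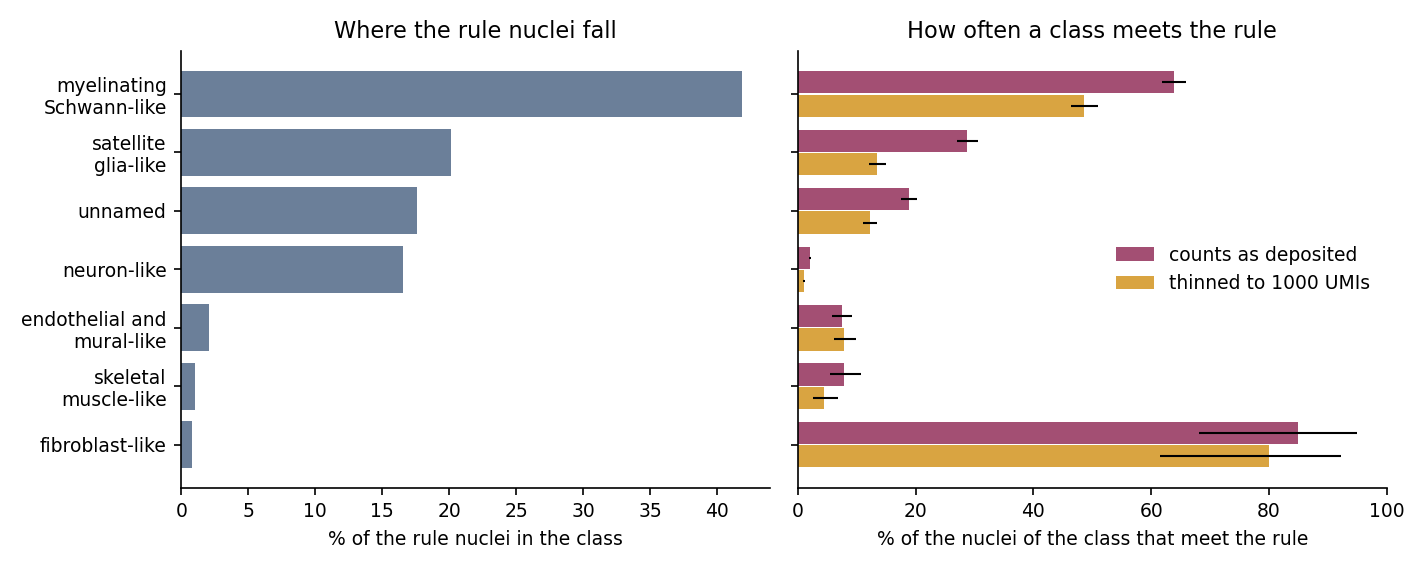
Left, percentage of the 3493 selected nuclei that fall in each class of clusters. Right, percentage of the nuclei of each class that meet the rule in the counts as deposited and after thinning to 1000 UMIs; lines are 95% exact binomial intervals, which cover counting error only. Myelinating Schwann-like nuclei supply 41.9% of the selection, and the fibroblast-like cluster, of which 84.8% meets the rule, supplies 0.802%. The limits of the rule on Pecam1, Notch3, Scn10a and Slc17a6 lower the shares of neuron-like and of endothelial and mural-like nuclei.

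Genes of myelin and of Schwann cells were among those that led the selected nuclei. These values describe the selection and carry no test, since the rule chose the nuclei by their counts and the clusters rest on the same counts. Prx, which encodes the periaxin of the Schwann cell membrane, was at 308 CPM in the selected nuclei (pools 207 to 382) and 27.9 CPM in the others (12.3 to 52.8), a ratio of 9.49 with 5 CPM added to each side. Mal, a lipid-raft proteolipid of myelin, was at 182 against 16.2 CPM, and Mbp, myelin basic protein, at 857 against 116 CPM. Fa2h, which makes the hydroxylated fatty acids of myelin lipids, was at 182 against 23.7 CPM, and Gjc3, a connexin of glia, at 108 against 11.4 CPM.

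Other leading genes were Grin2b (492 against 47.1 CPM), Mlip (602 against 59.1), Adarb2 (878 against 98.6), Bcas1, Il16, Prkcq, Plekha4, Vgll3, Prrg4, AABR07073181.1 and AABR07044900.1. Matrix genes among the leading ones were Col6a3, a chain of microfibrillar collagen VI (219 against 23.4 CPM), Tll1, a protease of the family that trims procollagen (141 against 15.5), and Sparcl1, a matricellular glycoprotein (321 against 44.98). Each of these genes was higher in the selected nuclei of all 12 pools. As background, 589 of 5039 genes with a UMI in 10% of the selected nuclei (11.7%) were at least 2 times higher there, 233 were at least 2 times lower, and the median ratio was 1.08.

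**Figure D2:**
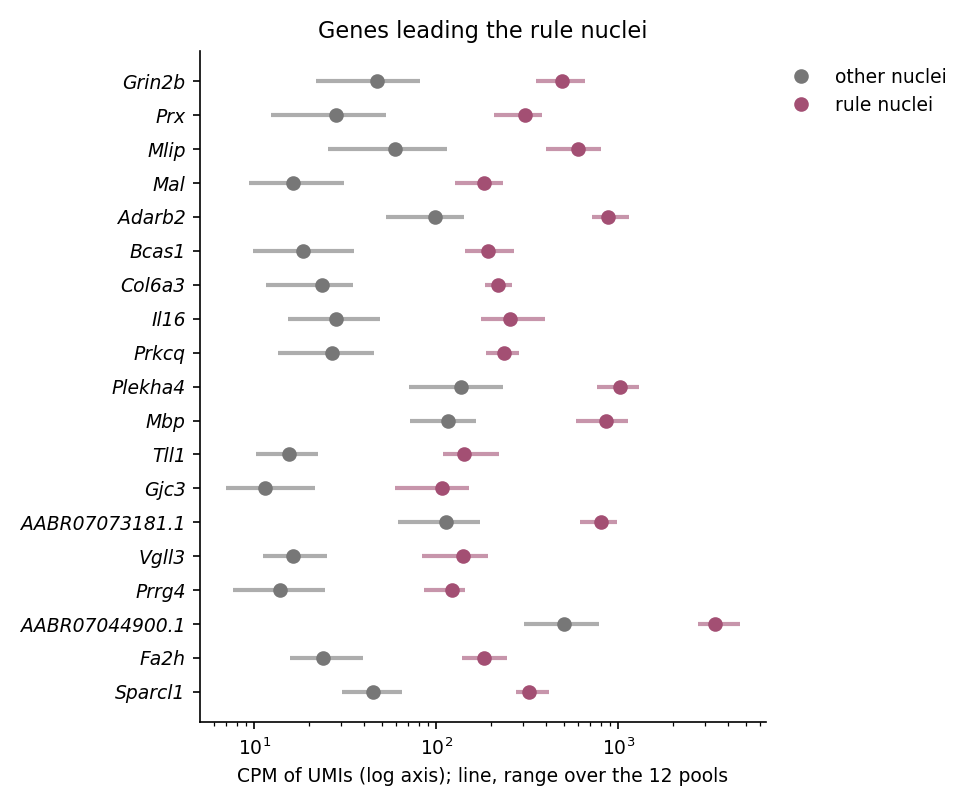
CPM of genes with the largest ratios between the selected (rule) nuclei and the other nuclei, on a log axis; points are values over all pools together and lines the range over the 12 pools. The 2 ranges do not meet for any of the genes plotted; for Prx they are 207 to 382 and 12.3 to 52.8 CPM.

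The cell type lists gave the same picture. Of 7 myelinating Schwann markers, 7 were at least 2 times higher in the selected nuclei, among them Pmp22 (1660 against 350 CPM) and Mbp. Of 8 satellite glia markers, 7 were, led by Apoe (918 against 274 CPM) and Cdh19 (637 against 117 CPM). Cdh19, Sox10 and Erbb3 of this list were higher in Schwann-like than in satellite glia-like nuclei in 12 of 12 pools. Glul was in 8, Slc1a3 in 5, Fabp7 in 1, and Apoe and Kcnj10 in 0. Of 16 fibroblast markers outside the rule, 10 were at least 2 times higher in the selected nuclei, led by Lama2, Abca8a, Col5a1 and Col5a2. None of 10 general neuron markers was, and 3 were at least 2 times lower. Snap25 was at 940 against 1615 CPM and Nefm at 2137 against 1854 CPM.

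Markers of other cells were mostly low in level, which does not mean lower than in the other nuclei. Of the macrophage markers, Csf1r, Ptprc and F13a1 were higher in the selected than in the other nuclei in 12 of 12 pools. Cd74 was in 11, Mrc1 in 10, Cd163 and Cx3cr1 in 9, C1qb in 7 and C1qa in 1. Of the genes named below for other lists, Kit was in 12, Ptgds in 11, Skap1 in 4 and Acsl1 in 1. The 9 macrophage markers summed to 68.5 CPM (pools 36.4 to 94.4), with Mrc1 at 16.2 CPM and Ptprc at 11.1 CPM. The 7 endothelial markers summed to 138 CPM with Pecam1 at 0, which the rule fixes, and the 8 mural markers to 206 CPM with Notch3 at 0, fixed in the same way. T or NK cell markers summed to 18.2 CPM and mast cell markers to 51.1 CPM, with Skap1 at 16.9 and Kit at 50.6 the highest of each. Adipocyte markers summed to 68.3 CPM, with Acsl1 at 52.7 the highest, and leptomeningeal markers to 17.2 CPM, led by Ptgds at 5.68. Sarcomere transcripts were an exception. The 8 skeletal muscle markers summed to 1326 CPM, from 297 in the lowest pool to 4534 in FR2, where skeletal muscle-like nuclei made up 7.09% of all nuclei.

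Stepping across the threshold of the rule changed the makeup of the nuclei by degrees. Among nuclei that met the limits on Pecam1, Notch3, Scn10a and Slc17a6, Prx was at 91.3 CPM in the 3842 with 1 rule gene, 218 CPM in the 1920 with 2 and 393 CPM in the 1573 with 3 or more. The myelinating Schwann-like share was 11.7%, 33.3% and 52.3% in the same order, and the neuron-like share 50.4%, 21.8% and 10.1%. The fibroblast-like cluster supplied 1, 3 and 25 nuclei. The 377 nuclei just outside the neuronal limit, with 3 UMIs of Scn10a plus Slc17a6, were 43.8% neuron-like and 9.81% myelinating Schwann-like. That limit counts neuronal UMIs, so a larger neuron-like part beyond it is partly set by the rule.

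Levels of the 6 rule genes are a description too. In the selected nuclei of the 12 pools, Col1a2 ran from 511 to 640 CPM, Col3a1 from 401 to 609, Col1a1 from 309 to 512, Dcn from 70.3 to 124, Pdgfra from 16.3 to 51.5 and Lum from 3.64 to 21.9. Col1a2 was the steadiest, at 582 ± 37.6 CPM (SD, n = 12 pools). Lum and Pdgfra, with few UMIs, spread most for their level: the highest pool for Lum was FR2 and the lowest FR1.

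Pooled, all 6 genes were higher in myelinating Schwann-like than in neuron-like nuclei, and Dcn and the 3 collagens followed the order Schwann-like, satellite glia-like, neuron-like in each of the 12 pools. Col1a2 was at 775 CPM in the myelinating Schwann-like cluster, 273 in satellite glia-like nuclei and 40.2 in neuron-like nuclei. Col1a1 was at 590, 170 and 32.1 CPM and Col3a1 at 690, 176 and 33.6 CPM in the same order. Dcn was at 95.4, 35.3 and 9.35 CPM. The 33 nuclei of the fibroblast-like cluster had 1158 CPM of Col1a2, 1265 of Col1a1, 1767 of Col3a1 and 1082 of Dcn. The gap between the fibroblast-like and the Schwann-like cluster was thus wide for Dcn and narrow for Col1a2.

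**Figure D3:**
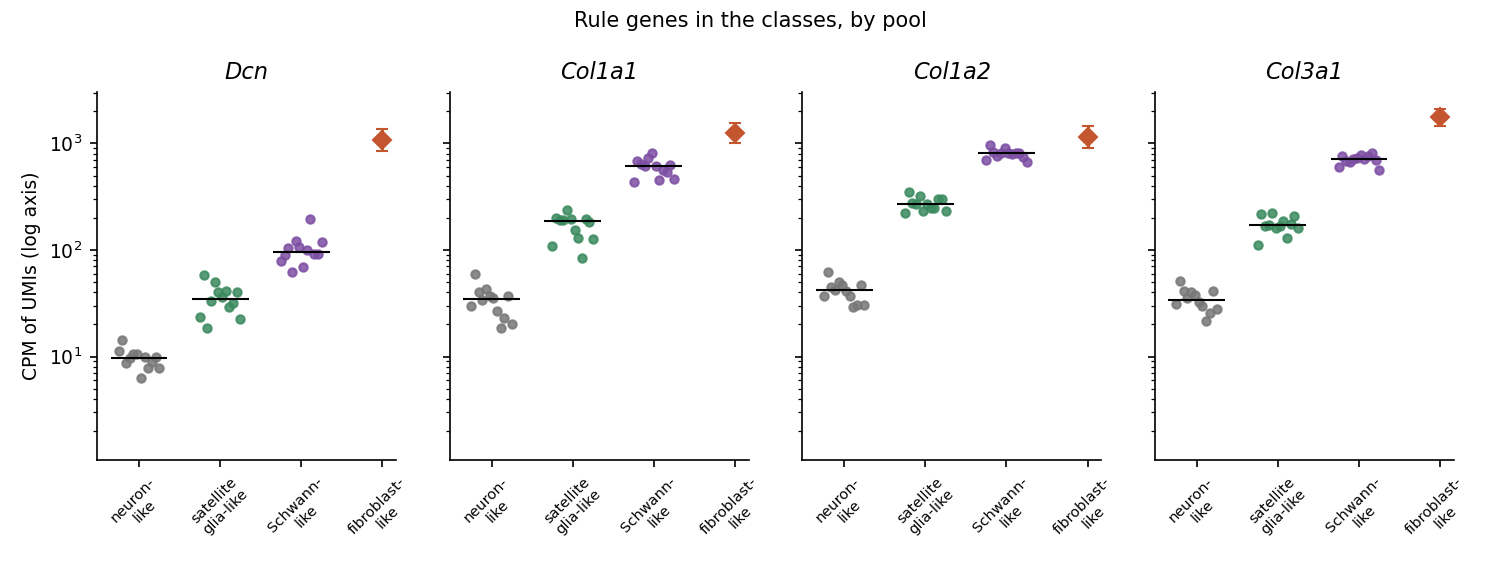
CPM of Dcn, Col1a1, Col1a2 and Col3a1 on a log axis. Circles are the 12 pools of the neuron-like, satellite glia-like and myelinating Schwann-like classes with the median as a bar; the diamond is the fibroblast-like cluster over all pools together with an exact Poisson interval (95%, counting error only). For each gene the Schwann-like pools lie above all satellite glia-like and neuron-like pools, and Dcn is the gene for which the fibroblast-like cluster stands farthest above them.

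Free RNA in a nucleus suspension can add a few UMIs of an abundant transcript to any barcode. Shares of nuclei with a UMI were compared at 1000 UMIs a nucleus, with the neurons beside the glia. Any of the 3 collagens was seen in 83.5% of myelinating Schwann-like nuclei (pools 76.5% to 89.9%), 47.2% of satellite glia-like nuclei (35.5% to 55.6%) and 9.04% of neuron-like nuclei (6.47% to 13.4%). It was seen in 29 of the 30 fibroblast-like nuclei of that depth. Dcn was seen in 8.80% of Schwann-like, 3.81% of satellite glia-like and 1.13% of neuron-like nuclei, and in 17 of 30 fibroblast-like nuclei (56.7%). The lowest Schwann-like pool lay far above the highest neuron-like pool for the collagens, and above it for Dcn also (4.65% against 1.53%). Before thinning the medians were 1577.5 UMIs in Schwann-like, 3833 in satellite glia-like and 3026 in neuron-like nuclei. The neurons were thus not a background matched in depth. Free RNA was not estimated, and its part in these shares was not tested.

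The ratio of Dcn to Col1a2 set the fibroblast-like cluster apart, while the intervals of the 2 glial classes overlapped. For every 100 UMIs of Col1a2 there were 12.3 of Dcn in Schwann-like nuclei (95% interval 11.2 to 13.5, counting error only), 12.9 in satellite glia-like nuclei (11.7 to 14.2) and 23.2 in neuron-like nuclei (21.7 to 24.9). In the fibroblast-like cluster there were 93.4 (66.6 to 131). The selected nuclei as a whole had 16.9. Across 24 neuron-like clusters Col1a2 ranged from 17.3 to 144 CPM, so the neurons were not at 1 common level.

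Within the myelinating Schwann-like cluster, few genes differed by 2 times or more between the nuclei that met the rule and those that did not. Of 4026 genes outside the rule, 0 were at least 2 times higher in the 1462 selected nuclei than in the other 826, and 17 (0.422%) were at least 2 times lower. The median ratio was 1.01. At 1.5 times the shift was one-way, with 10 genes higher and 217 lower. No test was made here. The 17 included Mpped2 (57.7 against 146 CPM), Camk4 (56.1 against 134) and the glutamate receptor gene Grm7 (213 against 481). The rule leaves out nuclei with more than 2 neuronal UMIs, and the part of this in the lower values was not tested. Depth differed between them, with medians of 1740 and 1311.5 UMIs. Of the 826, 643 had fewer than 2 rule genes, 99 had Pecam1 or Notch3 and 84 had more than 2 neuronal UMIs.

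Matrix genes outside the rule were then taken by role, with levels in the selected nuclei set against the other nuclei. Neuron-like nuclei made up 74.3% of all nuclei and 16.5% of the selected ones. These ratios therefore also carry differences between glia and neurons. Over the genes with a UMI in 10% of the selected nuclei, 11.7% were at least 2 times higher. The lists had no such limit. Of 17 other collagen genes, 13 were at least 2 times higher. The chains of collagen V, which assembles into fibrils with collagen I, Col5a1 (272 against 66.0 CPM) and Col5a2 (244 against 40.1) were among them, and so were the collagen VI chains Col6a1 (30.5 against 6.62) and Col6a2 (49.9 against 14.2). Both basement membrane chains, Col4a1 (469 against 457) and Col4a2 (386 against 377), were at nearly the same level in both. Col5a3 was at 522 against 305 CPM. In the myelinating Schwann-like cluster Col5a2 reached 431 CPM, Col6a3 461 and Col4a1 660.

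Among 26 matrix glycoproteins and proteoglycans, 11 were at least 2 times higher. Lama2, the laminin chain of the Schwann cell basal lamina, was at 2074 against 377 CPM. Sparc was at 1196 against 231 CPM, Lamc1 at 636 against 250 and Nid1, the basement membrane linker nidogen, at 387 against 190. Fn1, fibronectin, was at 71.7 against 15.2 CPM. Of 18 genes of matrix processing, 8 were at least 2 times higher, with Timp3, an inhibitor of matrix metalloproteinases, at 487 against 147 CPM, Adamtsl1 at 293 against 73.04, Adamts5 at 238 against 63.5 and the prolyl hydroxylase subunit gene P4ha1 at 136 against 91.1.

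Among transcription factors of mesenchyme the share was near the 11.7% given above, though that covers only genes with a UMI in 10% of the selected nuclei. Of 22 mesenchymal transcription factors, 2 were at least 2 times higher: Nr2f2 (145 against 35.2 CPM) and Ebf2 (114 against 33.8). Ebf1 was at 1039 against 2141 CPM, Bnc2 at 170 against 105, and Twist1 had no UMI. Of 38 growth factors and receptors, 13 were raised, led in level by the TGF-beta coreceptor Tgfbr3 (745 against 143 CPM), while Igf1r was at 523 against 587, Tgfbr2 at 335 against 57.1 and the growth hormone receptor Ghr at 266 against 129.

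The lists for subtypes of nerve fibroblast were also mixed. None of 11 epineurial or adventitial genes was at least 2 times higher; Creb5 was at 243 against 160 CPM, Sema3c at 209 against 277 and Cd55 at 29.4 against 81.5. Of 10 endoneurial genes 4 were, among them Abca8a, a lipid transporter (1913 against 336 CPM), Apod, a lipid carrier (126 against 21.5), and Abca9 (123 against 32.9), while Etv1 was at 270 against 310. Of 11 myofibroblast genes 1 was, and it was Tnc, tenascin C (129 against 40.7 CPM); Runx1 was at 67.2 against 104 and Postn at 14.2 against 6.89. None of 7 adipogenic genes was, with Zfp423 at 83.8 against 89.5 CPM.

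Several of these genes of fibroblast lists were as high or higher in glia than in the fibroblast-like cluster. Abca8a was at 3362 CPM in the myelinating Schwann-like and 1905 CPM in the fibroblast-like cluster, and Col6a3 at 461 and 122 CPM. Fbln2, which encodes fibulin 2, was highest in satellite glia-like nuclei, at 423 CPM against 60.7 in Schwann-like and 45.7 in fibroblast-like nuclei. Tnc was at 221 CPM in satellite glia-like, 213 in fibroblast-like and 25.1 in Schwann-like nuclei. Lama2 was at 3360 CPM in Schwann-like and 2758 in fibroblast-like nuclei.

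The fibroblast-like cluster was small, with 33 nuclei, 28 of them selected, 65630 UMIs and a median of 1571 UMIs. Of the 5 not selected, 1 had fewer than 2 rule genes, 2 had Pecam1 or Notch3 and 2 had more than 2 neuronal UMIs. At resolution 2 a cluster led by Ebf2, Ntn1, Egfr and Cldn1 held 132 nuclei, 70 of them selected (2.00%); with 10 of 16 fibroblast markers raised it did not reach the share needed for the name. The cluster of 33 was made without the rule genes, and 32 of its 33 nuclei had at least 2 of them: 3 had 2, 11 had 3, 8 had 4, 8 had 5 and 2 had 6. Of 16 fibroblast markers outside the rule, 14 were at least 2 times higher in it than in nuclei outside the selection. The cluster was named from this list, so a high count was set by the naming. Against the other selected nuclei, 10 of the 16 were at least 2 times higher and 2 were at least 2 times lower. Its nuclei came from 9 pools, with at most 7 in 1 pool, so its values are given over all pools together, with exact intervals that cover counting error only and no test.

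The lists moved in part in this cluster when it was set against the other 3465 selected nuclei. Of 22 mesenchymal factors 12 were at least 2 times higher, 2 were at least 2 times lower and 7 had no UMI in the cluster. Of these 12, Osr1, Osr2 and Foxd1 had 1 UMI each, with fold intervals that reached below 1, and Foxc1 and Sox9 had 2. Of 26 glycoproteins and proteoglycans 11 were higher and 5 lower, and of 17 other collagens 6 were higher and 3 lower, by the same measure. Over the 5039 genes with a UMI in 10% of the selected nuclei, 7.92% were higher and 1104 genes were lower. The lists had no such limit, so this share is not a like background for them. The genes named next were chosen after their values were seen. Bnc2, a zinc finger factor of mesenchyme, was at 3916 CPM against 147 (26.6-fold, interval 23.2 to 30.3) and was seen in 32 of 33 nuclei. Ebf2 was at 1798 against 104 CPM (17.3-fold, 14.2 to 21.0). Fn1 was at 1082 against 65.7 CPM (16.5-fold, 12.7 to 21.1), Svep1, a large adhesion protein gene, at 549 against 9.49 (57.8-fold, 38.2 to 85.8) and Mgp, matrix Gla protein, at 290 against 5.61 (51.6-fold, 28.9 to 88.3). Lum was 17.2-fold higher (9.56 to 28.9), Dcn 11.7-fold (9.06 to 14.9), Pdgfra 6.52-fold (3.21 to 11.9), Col3a1 3.58-fold (2.95 to 4.31), Col1a1 2.86-fold (2.28 to 3.56) and Col1a2 2.00-fold (1.57 to 2.51).

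Other genes that were high there included Ntn1 (823 CPM, 32.9-fold), Igfbp6 (366 against 9.08), Lmo7 (914 against 30.6), Cav1 (549 against 25.2) and Egfr (777 against 43.9). Nidogen, Nid1, was at 1310 against 381 CPM and Abi3bp at 1036 against 152. Among collagens, Col6a6 was at 670 against 50.8 CPM and Col8a1 at 350 against 28.4. Lama2 (1.33-fold, 1.14 to 1.54) and Abca8a (0.995-fold, 0.828 to 1.19) differed little.

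The cluster also carried markers of perineurial cells, the flattened barrier cells that wrap nerve bundles. Of 9 such markers, 7 were at least 2 times higher than in nuclei outside the selection. Against the other selected nuclei 7 were at least 2 times higher as well (77.8%, median ratio 5.79), and 0 were at least 2 times lower. For the fibroblast markers outside the rule it was 10 of 16 (62.5%, median ratio 3.59). The name fibroblast-like comes from the naming rule, and whether the nuclei are fibroblasts, perineurial cells or both was not tested. The integrin gene Itgb4 was at 4038 CPM against 694 in the other selected nuclei, Cldn1, a tight junction gene, at 366 against 5.10, Itga6 at 899 against 258, Slc2a1 at 290 against 37.8 and Ntn4 at 229 against 22.1. Lypd2 and Moxd1 had no UMI. Dcn was seen in 23 of the 33 nuclei, Itgb4 in 30 and both in 21. Cldn1 was seen in 14, and together with Dcn in 12. The 7 myelinating Schwann markers summed to 3093 CPM in the cluster and 5031 CPM in all selected nuclei. Prrx1 and Pi16 had no UMI, which at 65630 UMIs allows up to 45.7 CPM (3 counts).

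**Figure D4:**
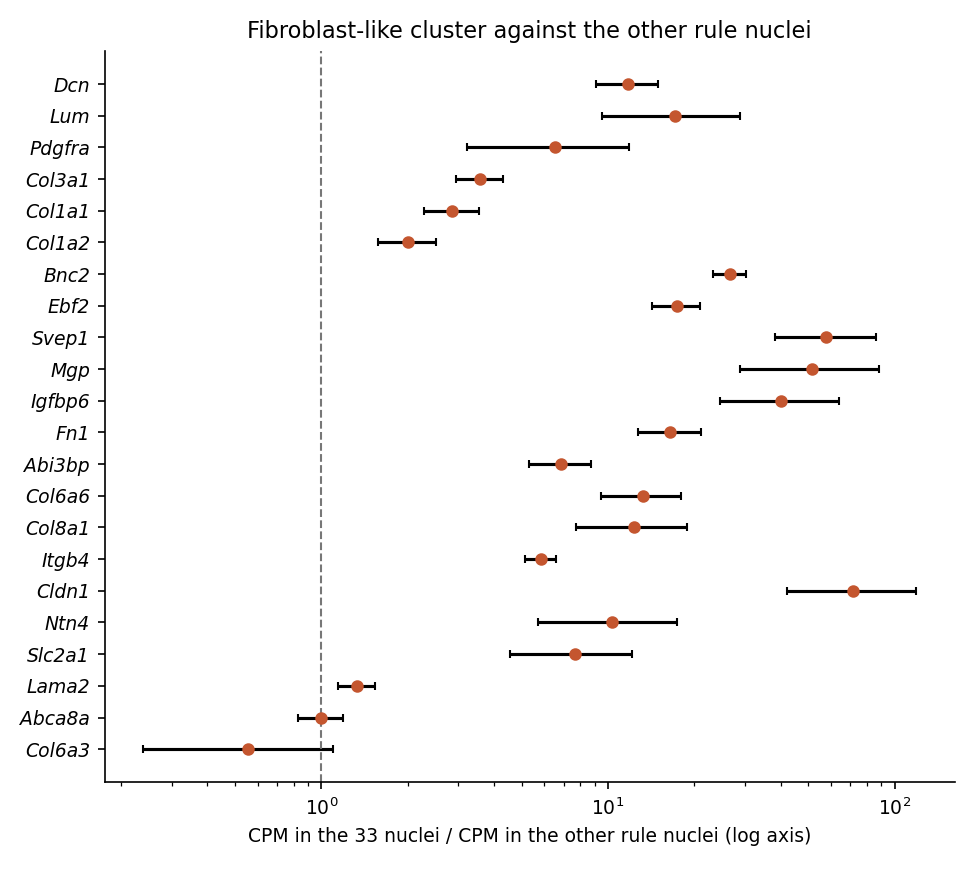
CPM in the 33 nuclei of the fibroblast-like cluster divided by CPM in the other selected nuclei, on a log axis, with 95% intervals that cover counting error only; the dashed line marks equal levels. The genes plotted were chosen after their values were seen. Bnc2 (26.6) and the perineurial gene Cldn1 (71.7) lie far to the right, while Lama2 and Abca8a lie near the line.

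The share of selected nuclei was then compared between pools. In percent of all nuclei it was 8.59, 8.98 and 9.86 in ML1 to ML3, 12.3, 10.2 and 7.33 in MR1 to MR3, 9.30, 9.21 and 4.22 in FL1 to FL3, and 8.60, 15.2 and 6.70 in FR1 to FR3. The groups overlapped throughout, and the highest and the lowest pool were both labelled female. Left pools averaged 8.36% ± 2.07 (SD, n = 6) and right pools 10.1% ± 3.25 (SD, n = 6), a difference of 1.71 percentage points (two-sided exact permutation test, 400 relabellings, p = 0.355, adjusted p = 0.945 over 4 tests). Male-labelled pools averaged 9.55% ± 1.71 and female-labelled pools 8.88% ± 3.66 (n = 6 each, SD). That difference had a two-sided p of 0.705 by the exact permutation test and an adjusted p of 0.945. The smallest p this design can give is 0.005. Without ML1 and FL1 the right minus left difference was 2.00 points (exact permutation p = 0.390) and the female minus male difference -0.956 points (exact permutation p = 0.633).

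The makeup of the selection moved with the pools too. Myelinating Schwann-like nuclei made up 11.5% of all nuclei in FR2 and 2.90% in FL3, the pools with the highest and lowest shares of selected nuclei. As a share of nuclei outside the neuron-like clusters, the selected nuclei ran only from 26.4% to 33.8%, and the right minus left difference was then -0.841 points (exact permutation p = 0.585). Fewer glia recovered and more neurons recovered cannot be told apart in a share.

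**Figure D5:**
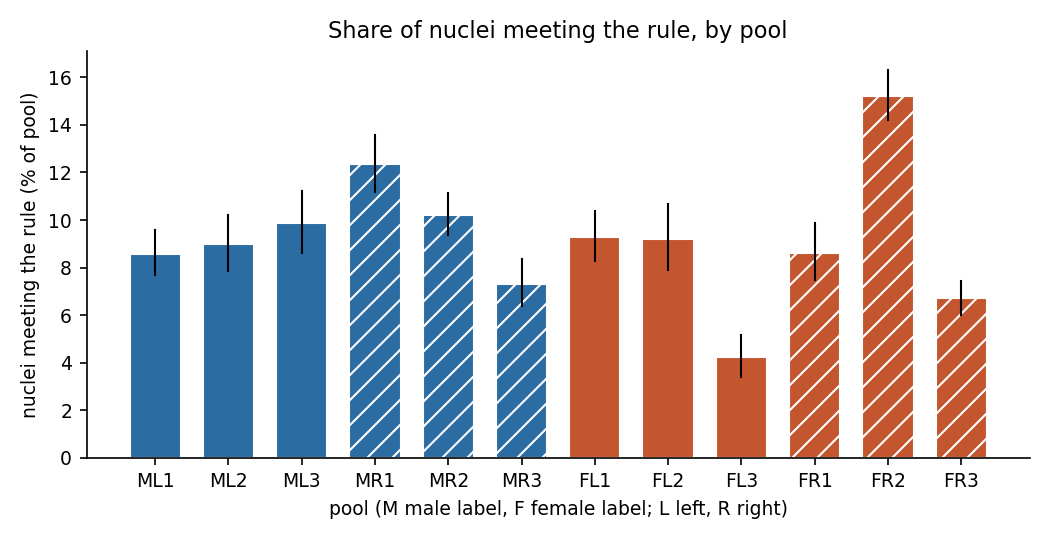
Percentage of the nuclei of each pool that meet the rule; blue, male label, orange, female label, hatched, right side; lines are 95% exact binomial intervals, which cover counting error only. FL3 is lowest at 4.22% and FR2 highest at 15.2%, and the 4 groups overlap.

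Selected nuclei of the fibroblast-like cluster numbered 0, 1 and 4 in ML1 to ML3, 3, 2 and 2 in MR1 to MR3, 5, 1 and 0 in FL1 to FL3, and 0, 7 and 3 in FR1 to FR3. Where none was found, the counts allow a share of up to 0.0868% in ML1, 0.136% in FL3 and 0.137% in FR1 (3 nuclei). The right minus left difference in share was -0.0045 points (exact permutation p = 0.890) and the female minus male difference -0.0037 points (exact permutation p = 0.945), both with an adjusted p of 0.945. Without ML1 and FL1 these differences were -0.0022 points (exact permutation p = 0.930) and -0.0369 points (exact permutation p = 0.450). With these few nuclei no gene could be tested within the cluster, since no pool reached 10.

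Expression within the selected nuclei was tested on UMIs summed per pool, over 9402 genes that passed the filter on low counts. CPM in these comparisons are scaled by edgeR's TMM factors, and the p-values measure the spread between pools. By side, edgeR's quasi-likelihood test with Benjamini-Hochberg adjustment called 0 genes (0%) at an adjusted p under 0.05, with 461 at an unadjusted p under 0.05. DESeq2 also called 0, and 265 had an unadjusted p under 0.05. The gene with the smallest p was Mgat4c, a member of the N-glycan branching enzyme family. In left pools it ran from 54.4 to 95.1 CPM (72.8 ± 16.1, SD, n = 6) and in right pools from 26.0 to 52.1 (41.5 ± 9.57, SD, n = 6). The sides did not overlap, but how many of the 9402 genes do the same was not counted. The right minus left log2 fold change of -0.81 ± 0.17 (SE) had an edgeR adjusted p of 0.456. Without ML1, edgeR called Mgat4c (adjusted p = 0.0380) and Brinp3 (log2 fold change -0.69, adjusted p = 0.0227), both lower on the right. Without ML1 and FL1 it called 1 of 8749 genes (0.0114%), and that was Brinp3 (-0.77, adjusted p = 0.0133). Brinp3 was among the leading genes of a neuron-like cluster. Neuron-like nuclei made up 20.7% ± 3.92 of the selected nuclei on the left and 15.9% ± 4.98 on the right (n = 6 pools each, SD), and their part in these values was not tested.

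By labelled sex, edgeR called 0 of 9402 genes (0%), and 679 had an unadjusted p under 0.05. The calls of DESeq2 were 2, Kcnip4 and Ndst4, among 416 of that unadjusted size. The smallest edgeR p was that of Ndst4, an enzyme that sulfates heparan chains, at 41.7 ± 23.6 CPM under the male label and 15.8 ± 8.22 CPM under the female label (n = 6 pools each, SD). Its log2 fold change was -1.42 ± 0.28 (SE, edgeR adjusted p = 0.0813), and the groups overlapped. Kcnip4, whose protein binds neuronal potassium channels, had a log2 fold change of -0.53 (edgeR adjusted p = 0.0813). Neuron-like nuclei made up 20.8% ± 4.28 of the selected nuclei under the male label and 15.8% ± 4.53 under the female label (n = 6 pools each, SD), and the part of this in those values was not tested.

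Without ML1 and FL1, edgeR called 21 of 8749 genes by labelled sex (0.240%), 11 lower and 10 higher in the female-labelled pools. The Y-linked genes Kdm5d (65.8 ± 3.27 against 1.69 ± 1.83 CPM, SD, n = 5 each) and Eif2s3y (41.7 ± 7.46 against 0.880 ± 1.65) were lower. Over all 12 pools their edgeR adjusted p were 0.409 and 0.503. ML1 and FL1 were left out by the summed level of Y-linked genes, these 2 among them. That choice fixed the separation of the 2 genes in the other 10 pools, so no p is given for them there. The X-linked gene Kdm6a was higher, at 214 ± 28.2 against 109 ± 18.0 CPM (adjusted p = 1.91e-05), as was Dmd, the X-linked gene of dystrophin (log2 fold change 0.45, adjusted p = 0.0042). Genes of the fibroblast and growth factor lists were also among the calls. Abca8a was higher in the female-labelled pools, at 2203 ± 187 against 1625 ± 221 CPM (log2 fold change 0.44, edgeR adjusted p = 0.0161), and Igf1, insulin-like growth factor 1, was lower, at 11.5 ± 3.21 against 28.6 ± 6.35 CPM (-1.20, adjusted p = 0.0260). Neither gene's groups overlapped in these 10 pools, but how many of the 8749 genes do the same was not counted. Igf1 rested on few UMIs, with 177 over all pools in the selected nuclei outside the fibroblast-like cluster. Abca8a was highest in the myelinating Schwann-like cluster, and in the same pools that cluster held a mean of 35.9% of the selected nuclei under the male label (30.0% to 43.8%) and 45.6% under the female label (39.8% to 51.6%, n = 5 pools each); its part in the difference was not tested.

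In the same fit Per3, Tef and Ppara were higher in the female-labelled pools. Per3, a gene of the circadian clock, was at 123 ± 12.3 against 83.3 ± 11.8 CPM (adjusted p = 0.0161). Tef, a clock-controlled transcription factor, was at 105 ± 3.88 against 66.3 ± 11.2 CPM (adjusted p = 0.0219). Ppara, a nuclear receptor of fatty acid breakdown, was at 62.3 ± 14.8 against 33.8 ± 3.41 CPM (adjusted p = 0.0265), all by edgeR with n = 5 each. Over all 12 pools their adjusted p were 0.609, 0.368 and 0.196. The remaining calls included Ndst4, Kcnip4, Nwd2, Msra, Ddx3 and AC239701.1, with ENSRNOG00000060617, lower, and Cadm2 and St8sia6, with ENSRNOG00000065796 and ENSRNOG00000037911, higher. They differed widely in size. The log2 fold change was -4.33 for Ddx3, -4.40 for ENSRNOG00000060617, -3.38 for AC239701.1, 5.69 for ENSRNOG00000065796 and 2.76 for ENSRNOG00000037911, against -0.60 for Kcnip4 and 0.50 for Cadm2. The part of the choice of pools by Y-linked genes in the large values was not tested.

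The side difference was also compared between the labelled sexes. edgeR called 0 of 9402 genes (0%), and 427 had an unadjusted p under 0.05. The count from DESeq2 was 0, with 147 of that unadjusted size. The smallest p was that of Hs6st1, a heparan 6-O-sulfotransferase gene. It was at 92.4, 95.1 and 83.4 CPM in ML1 to ML3, 117, 122 and 111 in MR1 to MR3, 106, 120 and 140 in FL1 to FL3, and 77.8, 69.6 and 83.5 in FR1 to FR3. It was thus higher on the right in male-labelled and on the left in female-labelled pools, with an interaction of -1.01 ± 0.21 on the log2 scale (SE, edgeR adjusted p = 0.394). With at least 3 rule genes required it was -0.49, and among the selected nuclei of the myelinating Schwann-like cluster -0.46. Without ML1 and FL1 the interaction of Hs6st1 was -1.16 (edgeR adjusted p = 0.823), and edgeR called 0 of 8749 genes.

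None of the 6 rule genes was called in these comparisons. Their log2 fold changes lay between -0.13 (Pdgfra) and 0.11 (Col1a1) by side and between -0.15 (Col1a1) and 0.11 (Col3a1) by labelled sex. Of the 17 other collagens, all 17 passed the filter and 0 were called: by side 6 were higher and 11 lower, with a median log2 fold change of -0.04 against -0.0013 over all genes, and by labelled sex 10 were higher and 7 lower (median 0.02 against 0.0051). Of 28 listed matrix glycoproteins and proteoglycans 18 passed the filter, of 38 growth factors and receptors 24, and of 22 mesenchymal factors 9, again with 0 called. In the interaction, 13 of the 18 glycoprotein genes had negative values (median -0.35 against 0.0059 over all genes). Of the 18, 5 had an unadjusted p under 0.05, against 427 of 9402 over all genes, and the list was 1 of 28. They were Fbln2 (-0.41), Fbln5 (-0.71), Tnc (-0.90), Fn1 (-0.94) and, with a positive value, Mfap5 (1.11), each with an edgeR adjusted p of 0.998. Fbln2, Fbln5 and Tnc were higher in Schwann-like than in satellite glia-like nuclei in 0 of the 12 pools, Fn1 in 9 and Mfap5 in 11. The part of the makeup of the selection in these values was not tested.

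Sarcomere genes varied by pool within the selection. Ttn, which encodes titin, was at 2964 CPM in FR2 and between 78.8 and 718 CPM in the other pools. Among the selected nuclei of the myelinating Schwann-like cluster alone, edgeR called Ttn by side (log2 fold change 2.37 ± 0.45, SE, adjusted p = 0.0148). Beside it stands the share of skeletal muscle-like nuclei, which was 7.09% in FR2 and at most 1.73% in each other pool; its part in the call was not tested.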

How the data were processed

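Single-nucleus RNA was measured with Parse Biosciences combinatorial barcoding, per the labels' protocols. The authors deposited a matrix of raw UMI counts of 36741 nuclei and 30560 genes, with tables of genes and nuclei; per the submitters' processing notes the genome build was mRatBN7.2 and the tools included R 4.3.2 and Seurat 4.1.3. For the aligner and annotation: not given in the sources used here. Pools were read from the table of nuclei; total counts per pool ran from 7140286 to 19456287.

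The rule was applied to the counts as deposited, with no further filter and no doublet caller. Nuclei were thinned to 1000 UMIs for shares. Clusters were made without the 10 rule genes (scanpy 1.11.5, leidenalg 0.10.2; 3000 variable genes, 40 components, 15 neighbours, resolution 1) and named where at least 75% of a list, and 3 markers, were 2 times higher than elsewhere (for neurons, 3 of 10 markers at 1.5 times); this scheme was settled after seeing the data. Of the listed symbols, Ogn, Tnxb, Drp2, Cldn5, Flt1, Timp2 and Cebpa were not matched. Ratios of CPM used a pseudocount of 5 CPM. Named genes were the rule genes, the 20 with the largest ratio seen in at least 10% of the selected nuclei, the 4 highest of each list with every member called, and in each test up to 20 calls or the smallest p; genes of the fibroblast-like cluster were chosen after their values were seen, and so were the genes named for the levels in glia. Some genes that this rule names are not reported here. The members and lists were chosen with earlier results of these data known.

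Shares per pool were compared by exact permutation within the other factor. Summed counts were tested with edgeR 4.0.16 (quasi-likelihood, TMM, filterByExpr) under R 4.3.3, with DESeq2 1.42.0 as an alternative; other alternatives left out each pool, changed the rule or the filter, or kept 1 cluster. On simulated counts of 9402 genes edgeR recovered 93% of genes changed by a log2 of 1 and 100% of those changed by 2 for side, 93% and 99% for sex, and 44% and 86% for the interaction. Besides these, 13, 14 and 9 unchanged genes were called. In the simulation every pool followed its label, the makeup was the same in all pools, and each gene's spread came from the trend over genes. In the data ML1 and FL1 went against their labels and the makeup moved with the pools. The simulated shares therefore do not give the recovery in the data.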

Additional observations from a re-analysis of the deposited data

Results flagged for a closer look

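In 60 groups of 6 pools, 6 pools stood apart from the rest of their group by Dixon's criterion; chance flags about 1 in 20 groups. FL3 had the lowest share of selected nuclei of the left pools, 4.22%, with the next at 8.59%. FR2 had 3.602% of its selected nuclei in the skeletal muscle-like class, with the next right pool at 0.806%. In the selected nuclei Col1a1 was at 309 CPM in FR3, with the next right pool at 455; Col1a2 was at 640 CPM in ML2, with the next left pool at 575. Pdgfra was at 51.5 CPM in FL2, with the next female-labelled pool at 29.2, and Mgat4c was at 95.1 CPM in ML2, with the next male-labelled pool at 56.9.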

How the results depend on the processing

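The shares did not pass the threshold by side or labelled sex under any alternative run. The right minus left difference reversed when taken over nuclei outside neuron-like clusters (-0.841 points), and the female minus male difference with Scn10a plus Slc17a6 at 0 (0.0123 points). Leaving out 1 pool at a time gave 0.680 to 2.39 points by side, -1.95 to 0.252 by sex (above 0 without FL3), and for the fibroblast-like cluster -0.0208 to 0.0196 by side and -0.0217 to 0.0205 by sex. Without the low-count filter edgeR called 28 genes by side, 91 by sex and 12 in the interaction. Without ML1 and FL1 the counts were 1 and 21; DESeq2 called 2 by sex, and at least 3 rule genes gave 1 by sex. Within the Schwann-like cluster, an alternative chosen after seeing the data, each comparison had 1 call. Leaving out single pools gave 0 to 2 calls by side (2 without ML1), 0 to 26 by sex (26 without ML1, 6 without FL1, 3 without MR1, 2 without ML3 or FR3, 1 without FL2) and 0 to 1 in the interaction (1 without FL3). The replicate block called 0 genes by side (518 at an unadjusted p under 0.05). Deviations of same-numbered pools correlated between -0.058 and 0.109. FL3 and FR3, ML1 and MR1, and ML2 and MR2 were each other's closest match among opposite-side pools of their labelled sex, and the rest were not. Whether the numbers pair the pools cannot be told from these values. Clustering at resolution 0.5 named no fibroblast-like cluster; at 2 a cluster with overlapping leading genes held 70 selected nuclei (2.00%) against 28 but was not named, so share tests at those resolutions, and gene tests within the cluster, gave no value. The selected nuclei per pool ranged from 93 to 694.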
